A study of Mus musculus with 11 samples.

Results

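The Rag locus on chromosome 2 holds Rag1 and Rag2, whose proteins form the recombinase that cuts and joins the gene segments of antigen receptors. Here 8 known transcriptional regulators of this locus were followed in developing T cells: Foxo1, Foxo3, Runx1, Cbfb, Ikzf1, Satb1, Gfi1 and Myb. They were chosen by name for their reported role at the locus, with earlier results of these data known. All 8 were among the 13749 genes that passed the filter on low counts, out of 35896 genes with a transcript in the files. The data are RNA from thymocytes sorted by flow cytometry at the DN2 and DN3 stages, which lack CD4 and CD8, from mice of strain C57BL/6J. DN2 WT held 3 libraries, DN2 Arpp21-/- 2, DN3 WT 3 and DN3 Arpp21-/- 3, and the wild-type groups carried no engineered allele that the labels name. The Arpp21-/- mice (Arpp21 KO in the labels) came from a line in which CRISPR/Cas9 had excised exon 5 of Arpp21, which encodes an RNA-binding protein. The loss was in the whole animal, the age and sex of each donor are not given, and the labels do not say whether each library came from 1 mouse. The p values below therefore measure the spread between these libraries, which may in part be technical.

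FoxO proteins are forkhead activators that PI3K and Akt signalling keep out of the nucleus, and Foxo1 is known to drive Rag transcription in lymphocyte progenitors. Runx1 binds DNA and Cbfb, its non-DNA-binding partner, stabilizes the binding. Ikzf1 encodes the zinc finger protein Ikaros, Satb1 encodes a protein that binds AT-rich DNA and organizes chromatin at the Rag locus in thymocytes, Gfi1 encodes a zinc finger repressor reported to hold Rag expression down, and Myb encodes an activator reported at the Rag promoters and enhancers. Rag1 and Rag2 are switched on when the T cell receptor β locus is to be rearranged at DN3. The question was whether the RNA of these regulators differed where Rag1 RNA did, between DN3 WT and DN3 Arpp21-/- thymocytes and between DN2 and DN3.

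The windows of 250 bases before the start of Rag1 and Rag2 are shown because several of the 8 proteins are known to bind near them, and those before the distal and the proximal start of Runx1 because its transcripts are split between both starts below. They were taken from the RefSeq table of GRCm38.p6 and are written on the strand of the gene, with capitals for matches on either strand to TGTGGT for RUNX proteins, to AACNG for MYB, to GTAAACA for FoxO proteins, to GGGAA for Ikaros or to AAATC for GFI1. Matches that overlap run together in the capitals, and no short motif was searched for SATB1 or CBFB. The starts are those of the RefSeq table. The main distal Runx1 transcript of the counts, Runx1-201, starts at base 92826149, so that part of the distal window lies within it.
Rag1, chr2:101649533-101649782, minus strand: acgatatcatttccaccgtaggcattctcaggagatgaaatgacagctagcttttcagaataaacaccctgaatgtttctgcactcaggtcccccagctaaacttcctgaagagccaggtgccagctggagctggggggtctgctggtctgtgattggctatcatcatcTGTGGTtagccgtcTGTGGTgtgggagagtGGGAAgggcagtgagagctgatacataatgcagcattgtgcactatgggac
Rag2, chr2:101624462-101624711, plus strand: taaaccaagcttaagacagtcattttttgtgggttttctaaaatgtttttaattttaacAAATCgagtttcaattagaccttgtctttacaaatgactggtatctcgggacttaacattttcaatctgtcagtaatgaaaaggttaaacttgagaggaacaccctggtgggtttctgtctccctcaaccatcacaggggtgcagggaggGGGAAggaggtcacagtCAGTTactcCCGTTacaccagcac
Runx1 distal, chr16:92826075-92826324, minus strand: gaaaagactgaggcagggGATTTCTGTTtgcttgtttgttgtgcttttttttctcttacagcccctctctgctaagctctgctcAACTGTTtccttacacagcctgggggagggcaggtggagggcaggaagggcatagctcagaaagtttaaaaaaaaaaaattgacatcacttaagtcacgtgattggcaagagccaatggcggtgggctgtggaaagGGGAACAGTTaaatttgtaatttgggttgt
Runx1 proximal, chr16:92697330-92697579, minus strand: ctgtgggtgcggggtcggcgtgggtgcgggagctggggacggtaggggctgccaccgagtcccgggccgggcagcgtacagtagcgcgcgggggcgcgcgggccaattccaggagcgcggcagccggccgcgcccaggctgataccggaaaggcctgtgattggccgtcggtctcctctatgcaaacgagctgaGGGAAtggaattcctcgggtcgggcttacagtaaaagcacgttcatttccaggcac

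The Rag1 window held 2 matches to the RUNX letters, the first at 81 to 76 and the second at 67 to 62 bases before the start. At least 1 such match was found in 14% of the 32851 windows of this length in the table and at least 2 in 1.27%. The Rag1 window further held 1 match to the Ikaros letters at 51 to 47 bases before the start, a motif found in 56.2% of windows, and no match to the letters for MYB, FoxO or GFI1. The Rag2 window held 2 matches to the MYB letters, at 24 to 20 and 15 to 11 bases before the start, 1 to the Ikaros letters at 41 to 37 and 1 to the GFI1 letters at 191 to 187, and none for RUNX or FoxO. The MYB letters were found in 74.2% of windows, at least 2 of them in 42%, and the GFI1 letters in 32.7%. The FoxO letters were in 3.17% of all windows and in none of the 4 shown. Among the 15 windows that the table lists for the 8 regulators, 0 held the RUNX letters and 10 held the MYB letters. A match describes letters and is not a bound site.

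Library totals lay between 14531762 and 63109504 estimated counts with a median of 21501831, and expression is given as CPM, counts scaled to a common library size by the TMM factors of edgeR, or as TPM, which also corrects for transcript length. Ptcra, the pre-T cell receptor α chain that marks DN3, was between 365 and 605 CPM in DN3 and between 1 and 11.7 CPM in DN2 libraries, and Kit, the stem cell factor receptor of earlier progenitors, was higher in 4 of the 5 DN2 libraries (446 to 553 CPM) than in any DN3 library, the exception being DN2 Arpp21-/- replicate 2 (66.6 CPM). Of 5 B cell markers, Pax5 had no count in any library and the sum of the list was 38.6 to 71.9 CPM, mostly Cd79b. The 7 myeloid markers summed to 114 to 357 CPM in DN2 and to 29.9 to 47.6 CPM in DN3, and the 6 markers of the later DP stage to 43.5 to 151 CPM in DN2, to 405 to 501 CPM in DN3 WT and to 276 to 452 CPM in DN3 Arpp21-/-. Most of the DP sum in DN3 was Themis, at 377 to 476 CPM in WT and 253 to 426 CPM in Arpp21-/- libraries. Of the other DP markers Cd8b1 was highest, with at most 13.9 CPM in any DN3 library. Cd4, Cd8a and Cd8b1 had a higher mean in DN3 Arpp21-/- than in DN3 WT and Cd69 and Trac a lower one, all with overlap. The part of B, myeloid or DP cells in the results below was not tested. DN2 Arpp21-/- replicate 2 and DN3 Arpp21-/- replicate 3 stood apart from the other libraries, with TMM factors of 0.6 and 0.861 against 1.03 to 1.11, and held fewer counts of genes with long transcripts, so that fold changes and calls of the regulators are given with and without them where they move. Arpp21 itself, summed over whole transcripts, was 386, 336 and 312 CPM in DN3 WT, against 335, 221 and 142 CPM in the DN3 Arpp21-/- libraries, and such a sum does not measure the loss of 1 exon.

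Per transcript length the 8 regulators spanned 2 orders of size in DN3 WT. Myb was highest, with 258 ± 19 TPM (SD, n = 3), and above every other regulator in each library. Runx1 (141 ± 21 TPM, SD, n = 3), Satb1 (110 ± 22.1 TPM, SD, n = 3) and Ikzf1 (109 ± 15.4 TPM, SD, n = 3) followed, and neighbours in this order overlapped. Cbfb was at 63.4 ± 25.6 TPM (SD, n = 3), below the range of Ikzf1. Gfi1 (8.78 ± 3.98 TPM, SD, n = 3) and Foxo3 (5.95 ± 1.09 TPM, SD, n = 3) overlapped each other, and Foxo1 was lowest with 1.44 ± 0.337 TPM (SD, n = 3). In DN2 WT, Myb (324 ± 53.7 TPM, SD, n = 3) again led and Foxo1 (0.696 ± 0.0764 TPM, SD, n = 3) was again last, while Cbfb, at 106 ± 43.9 TPM (SD, n = 3), stood in the second place and overlapped Runx1. For comparison, Rag1 was at 209 ± 20.2 TPM (SD, n = 3) and Rag2 at 99 ± 4.47 TPM (SD, n = 3) in DN3 WT.

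**Figure D1:**
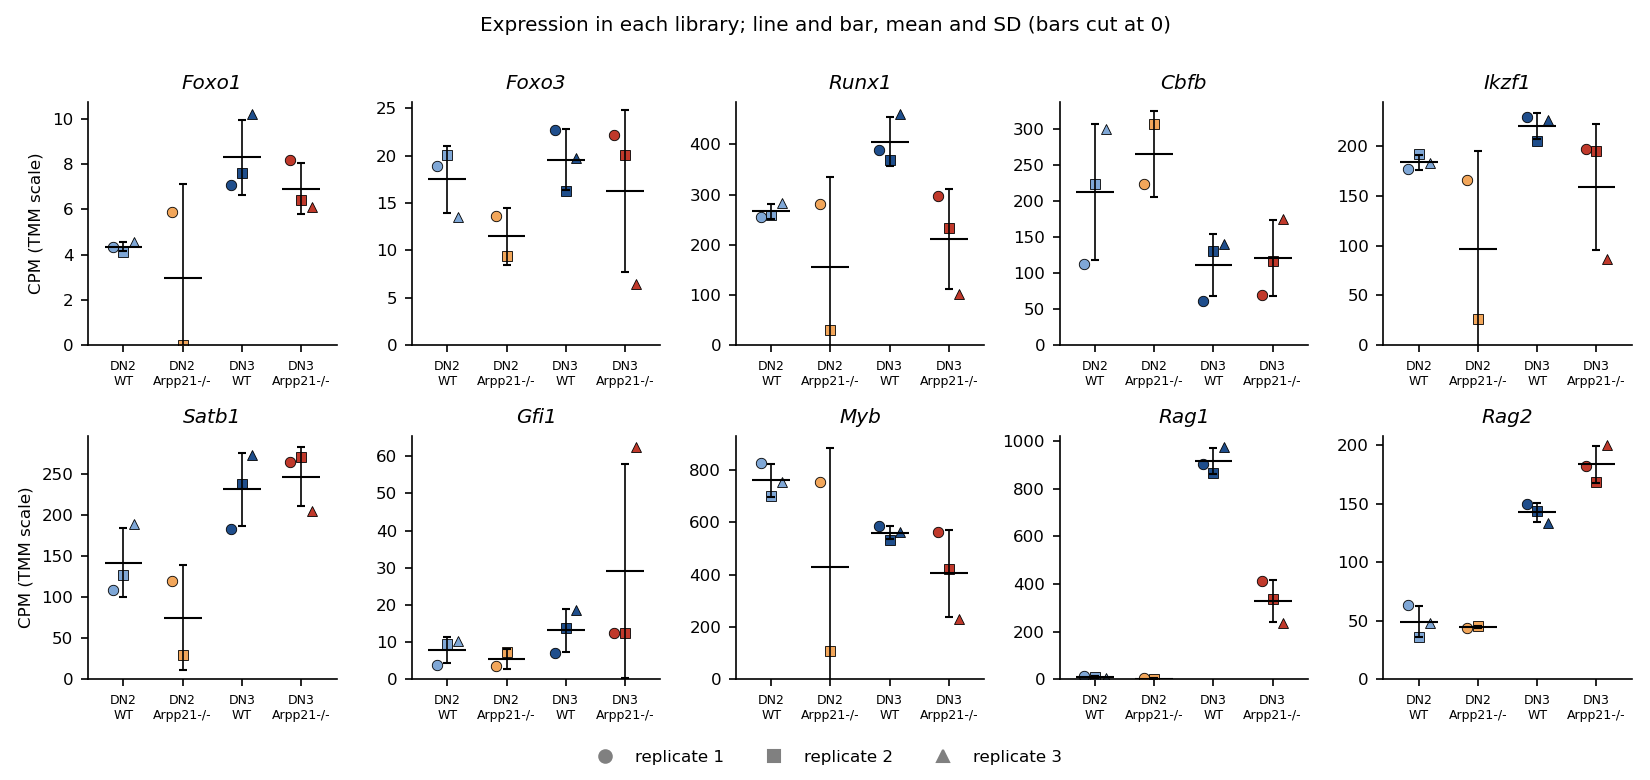
CPM of the 8 regulators, Rag1 and Rag2 in each of the 11 libraries, with the mean as a line, the SD as a bar and a symbol for each replicate number. Rag1 was between 236 and 413 CPM in DN3 Arpp21-/- and between 867 and 973 CPM in DN3 WT, while most regulators overlapped between genotypes and DN2 Arpp21-/- replicate 2 lay at the bottom for Foxo1, Runx1, Ikzf1, Satb1 and Myb.

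In DN3 thymocytes each Arpp21-/- library held less Rag1 than each WT library, while neither Rag1 nor any of the 8 regulators passed the test over all genes. Rag1 (chromosome 2, 101638282 to 101649501 of GRCm38, minus strand) was at 904, 867 and 973 CPM in WT, against 413, 335 and 236 CPM in the Arpp21-/- libraries. The groups did not overlap, and Arpp21-/- thymocytes held 0.359 of the WT level (log2 fold change -1.48, SE 0.45). In edgeR its p was 0.00767 before adjustment and 1 after it. Without both libraries that stand apart the log2 fold change of Rag1 was -1.29. In such bulk RNA, fewer cells that express a gene and less RNA per cell cannot be told apart. The fit shares the spread of all 11 libraries, and limma voom with weights for library quality gave an adjusted p of 5.94e-04 for Rag1 at a log2 fold change of -1.38. Rag2 (chromosome 2, 101624718 to 101632529, plus strand) was at 150, 144 and 134 CPM in WT, against 182, 169 and 200 CPM in the Arpp21-/- libraries, or 0.37 higher on the log2 scale (SE 0.24, edgeR, adjusted p = 1).

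Of the 8 regulators, 0 were called by edgeR at an adjusted p under 0.05, 0 had an unadjusted p under 0.05, and DESeq2 and voom also called 0, against 1 of 13749 genes (0.00727%) by edgeR, 16 by DESeq2 and 118 by voom. The unadjusted p of edgeR was under 0.05 for 214 genes. Their log2 fold changes ran from -0.94 to 1.14 with a median of -0.26, against a median of -0.01 for all genes, and 3 of 8 were above 0. Without both libraries that stand apart the median was -0.18. Even the narrowest 95% interval, that of Foxo3, ran from -1.23 to 0.70 on the log2 scale.

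Runx1 (chromosome 16, 92601466 to 92826149, minus strand) was the regulator with the lowest value. It was at 388, 368 and 461 CPM in DN3 WT, against 297, 234 and 102 CPM in the DN3 Arpp21-/- libraries, which did not overlap. The log2 fold change was -0.94 (95% interval -2.38 to 0.49, edgeR, adjusted p = 1), and without both libraries that stand apart it was -0.62 (unadjusted p 0.00221, edgeR, adjusted p = 0.357). By limma voom with quality weights it was -0.74 (unadjusted p 0.00132, adjusted p = 0.0919). With only the 2 groups fitted it was -0.93 (edgeR, unadjusted p 0.0396, adjusted p = 0.935). Ikzf1 (chromosome 11, 11685003 to 11772926, plus strand) likewise did not overlap, with 229, 205 and 226 CPM in WT, against 197, 195 and 86.3 CPM in the Arpp21-/- libraries. Its log2 fold change of -0.47 (SE 0.54, edgeR, adjusted p = 1) was -0.17 without both libraries. These were 2 of 8 regulators with all Arpp21-/- libraries below all WT libraries, where 5.58% of all genes were so ordered, and 0 of 8 had the opposite order, against 4.96% of all genes and including Rag2. Both had the lowest value in replicate 3, and both have long transcripts.

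Myb (chromosome 10, 21124935 to 21160984, minus strand) was at 584, 533 and 563 CPM in WT, against 561, 422 and 230 CPM in the Arpp21-/- libraries, so that replicate 1 lay within the WT range and the others below it. Its log2 fold change was -0.47 (SE 0.56) and -0.19 without both libraries that stand apart. The partner of Runx1, Cbfb (chromosome 8, 105170674 to 105217989, plus strand), was at 61.8, 131 and 140 CPM in WT, against 69.5, 117 and 175 CPM in the Arpp21-/- libraries, almost the same spread. Its log2 fold change was 0.12 (SE 0.46) and turned to -0.26 without both libraries. Satb1 (chromosome 17, 51736187 to 51833290, minus strand), with 183, 237 and 272 CPM in WT, against 264, 270 and 205 CPM in the Arpp21-/- libraries, also overlapped (log2 fold change 0.10, SE 0.44).

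The FoxO genes were low throughout. Foxo1 (chromosome 3, 52268336 to 52353221, plus strand) was at 7.08, 7.63 and 10.2 CPM in DN3 WT, against 8.2, 6.43 and 6.13 CPM in the DN3 Arpp21-/- libraries. Foxo3 (chromosome 10, 42181841 to 42276755, minus strand) was at 22.7, 16.3 and 19.8 CPM in WT, against 22.2, 20.1 and 6.46 CPM in the Arpp21-/- libraries, where replicate 3 alone lay below the WT range. Both had a log2 fold change of -0.26 (SE 0.99 for Foxo1 and 0.43 for Foxo3), and without both libraries it was -0.19 for Foxo1 and 0.11 for Foxo3.

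Gfi1 (chromosome 5, 107716657 to 107726036, minus strand) had the highest log2 fold change of the 8, 1.14 (SE 0.70, edgeR, adjusted p = 1), and it rested on 1 library. It was at 7.17, 13.7 and 18.6 CPM in DN3 WT, against 12.5, 12.4 and 62.4 CPM in the DN3 Arpp21-/- libraries, of which replicate 3 was far above all others. Without that replicate its log2 fold change was -0.08.

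**Figure D2:**
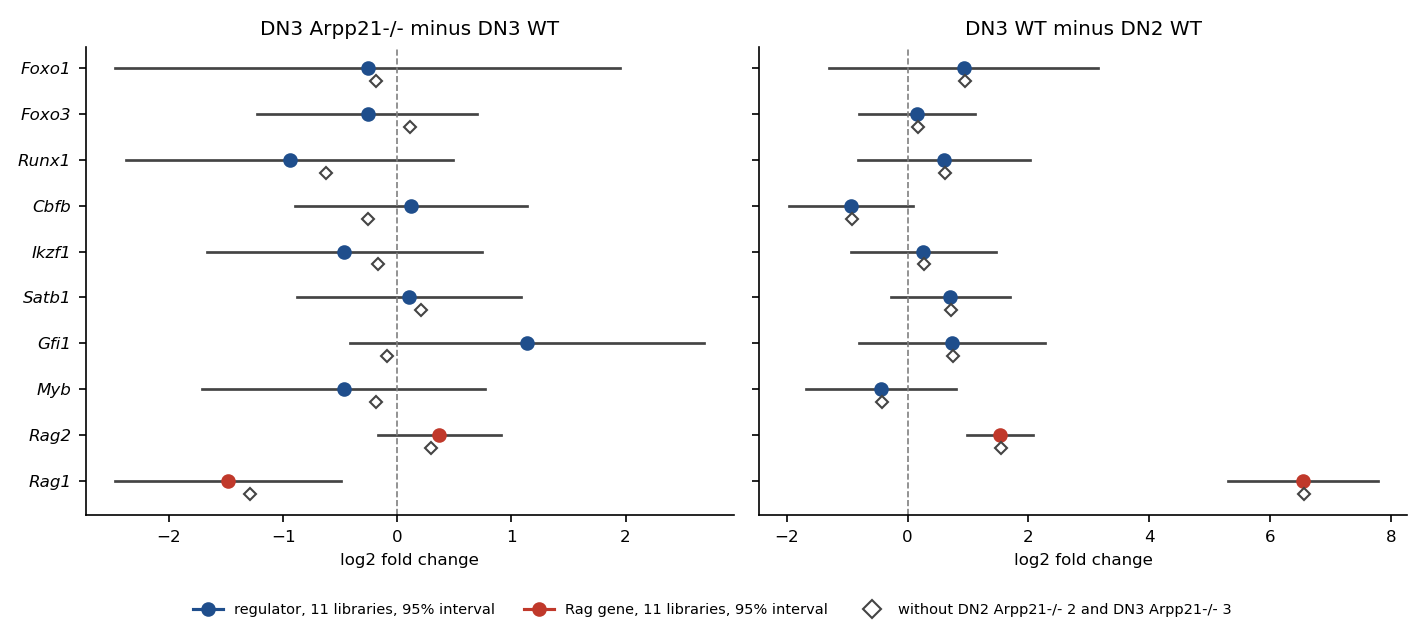
Log2 fold changes of the 8 regulators, Rag2 and Rag1 in DN3 Arpp21-/- against DN3 WT (left) and in DN3 WT against DN2 WT (right), as circles with 95% intervals from the fit of all 11 libraries, and as open diamonds from the fit without both libraries that stand apart. In the left panel the interval of each regulator spans 0 and that of Rag1 (-2.47 to -0.49) does not.

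Because Rag1 and each regulator are measured in the same library, Rag1 was also set against each regulator as a ratio of TPM, a comparison added after seeing the data. The ratio carries the lower Rag1 of these libraries, so that it is a description of Rag1 beside each regulator and no further test. In DN3 Arpp21-/- libraries the ratio was below that of every WT library for 7 of 8 regulators, and for Rag2. The same order was found for 81.2% of the 12765 genes tested that had a TPM above 0 in each DN3 library, so that 7 of 8 is near the share of all genes. Rag1 over Foxo3 was 34.1, 39.4 and 32.9 in WT and 15.4, 14.5 and 16.3 in Arpp21-/- libraries, 0.434 of the WT ratio. Rag1 over Satb1 was 2.25, 1.81 and 1.71 in WT and 0.75, 0.606 and 0.53 in Arpp21-/- libraries. Rag1 over Myb was 0.76, 0.804 and 0.86 in WT and 0.358, 0.396 and 0.506 in Arpp21-/- libraries. Runx1 was the exception, since Rag1 over Runx1 was 1.45, 1.59 and 1.43 in WT and 0.942, 0.979 and 1.54 in Arpp21-/- libraries, with replicate 3 in the WT range, and without that replicate all 8 ratios were lower. All 9 share the same Rag1 values and are not independent of each other.

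**Figure D3:**
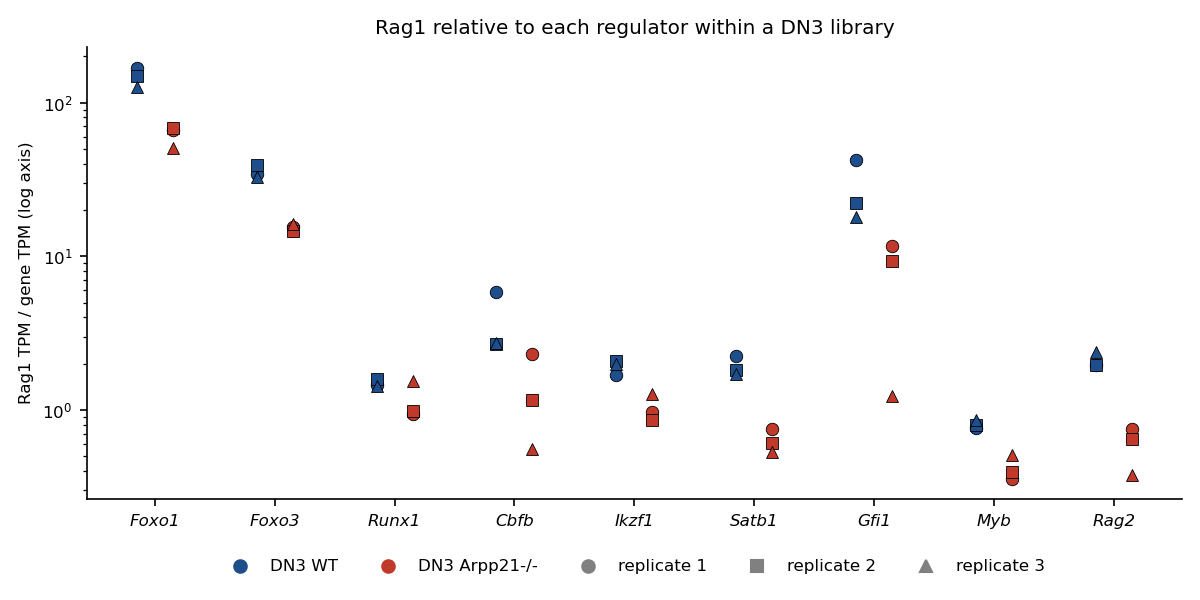
Ratio of Rag1 TPM to the TPM of each regulator, or of Rag2, within each DN3 library on a log axis, WT in blue and Arpp21-/- in red, with a symbol for each replicate number. For Foxo3 the WT ratios are 32.9 to 39.4 and the Arpp21-/- ratios 14.5 to 16.3, and for Runx1 the ratio of Arpp21-/- replicate 3 (1.54) falls among those of WT.

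From DN2 to DN3 in WT, Rag1 and Rag2 rose and none of the 8 regulators passed the test in the fit of all libraries. Rag1 rose from 14.6, 8.23 and 6.67 CPM in DN2 WT to 904, 867 and 973 CPM in DN3 WT, a log2 fold change of 6.54 (SE 0.56, edgeR, adjusted p = 3.17e-04), and Rag2 rose from 63.2, 36.6 and 48 CPM to 150, 144 and 134 CPM, a log2 fold change of 1.53 (SE 0.25, edgeR, adjusted p = 0.0068). With genotype and replicate number as a replicate block the adjusted p of Rag2 was 0.0514 by edgeR. Of all genes tested, 566 (4.12%) were called, 257 higher and 309 lower in DN3, and 216 (1.57%) with this block. No regulator had an unadjusted p under 0.05 by edgeR in either direction, against 1863 of 13749 genes. DESeq2 also called 0 of 8, against 1191 of all genes. Their log2 fold changes were between -0.94 and 0.93, with a median of 0.43 against 0.01 for all genes.

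Other fits, which carry less of the spread from both libraries that stand apart, called some regulators. Runx1 and Myb were called by edgeR when only the WT libraries were fitted (adjusted p = 0.0131 and 0.0159), when 16% of genes were called. Foxo1, Runx1 and Myb were called by edgeR without both libraries (adjusted p = 0.043, 0.0119 and 0.0397), when 15.4% of genes were called, and Satb1 alone was called by voom (adjusted p = 0.0268), which called 16.9%. In these fits the sizes were about the same as in the fit of all libraries, for example 0.60 and 0.62 on the log2 scale for Runx1.

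Runx1 was at 256, 260 and 284 CPM in DN2 WT and at 388, 368 and 461 CPM in DN3 WT, 1.52 times as high, without overlap. Foxo1 was at 4.36, 4.14 and 4.56 CPM in DN2 WT and at 7.08, 7.63 and 10.2 CPM in DN3 WT, 1.9 times as high and also without overlap. Ikzf1 was at 177, 192 and 183 CPM in DN2 WT and at 229, 205 and 226 CPM in DN3 WT. These 3 regulators had all DN3 libraries above all DN2 libraries, against 17.5% of all genes. Myb went the other way, from 825, 701 and 755 CPM in DN2 WT to 584, 533 and 563 CPM in DN3 WT, 0.736 of the DN2 level, the only one of 8 in that order, against 17.3% of all genes.

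The other 4 overlapped between stages, although Cbfb, Satb1 and Gfi1 went 1 way in all 3 same-numbered WT pairs. Cbfb was at 113, 224 and 300 CPM in DN2 WT replicates 1, 2 and 3 and at 61.8, 131 and 140 CPM in the same-numbered DN3 WT replicates, and DN3 was 0.547, 0.583 and 0.466 of DN2. It was also lower in both same-numbered pairs of Arpp21-/- libraries, at 0.312 and 0.381 of DN2. These libraries were not checked as pairs, and the second value rests on DN2 Arpp21-/- replicate 2, which stands apart. The log2 fold change of Cbfb in WT was -0.94 (SE 0.46, edgeR, unadjusted p 0.0698, adjusted p = 0.442), and with the genotype replicate block it was -0.92 (edgeR, unadjusted p 0.00721, adjusted p = 0.15). Satb1, at 109, 127 and 189 CPM in DN2 WT, was 1.68, 1.87 and 1.44 times as high in DN3 WT. Gfi1, at 3.97, 9.5 and 10.4 CPM in DN2 WT, was 1.81, 1.45 and 1.79 times as high. By pair, 5 of 8 regulators were higher in DN3 in all 3 WT pairs and 2 of 8, Cbfb and Myb, were lower, against 28.5% and 26.1% of all genes. Foxo3, at 18.9, 20.1 and 13.5 CPM in DN2 WT, was the only one whose pairs went both ways.

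In DN2 thymocytes the comparison of genotypes turned on 1 library. Runx1 was at 256, 260 and 284 CPM in DN2 WT, at 282 CPM in Arpp21-/- replicate 1 and at 29.4 CPM in replicate 2. Myb was at 752 CPM in replicate 1 and 110 CPM in replicate 2, Ikzf1 at 166 and 26.7 CPM and Satb1 at 120 and 30.1 CPM. Foxo1 was at 5.9 CPM (150 counts) in replicate 1 and had 1 count in replicate 2, the library with the largest total. For these 5 genes replicate 1 was within or close to the WT range and replicate 2 was far below it. Cbfb, at 223 and 307 CPM, Gfi1, at 3.46 and 7.24 CPM, and Foxo3, at 13.6 and 9.38 CPM, were not lowered to that degree. Rag1 was at 4.6 and 1.36 CPM, below all 3 WT libraries, and Rag2 at 43.8 and 45.3 CPM.

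By edgeR 0 of 8 regulators and 0 of 13749 genes (0%) were called in DN2, with 0 regulators and 2019 genes at an unadjusted p under 0.05. DESeq2 called 38 genes and 0 regulators. With replicate 2 as the only Arpp21-/- library, assumed to vary like the other groups, edgeR called 5 regulators (Foxo1, Runx1, Ikzf1, Satb1 and Myb) together with 46.2% of all genes. With replicate 1 as the only one it called 0 genes, and the log2 fold change of Runx1 went from -3.19 to 0.10. Ikzf1 was the 1 regulator with both Arpp21-/- libraries below all WT libraries, against 8.27% of all genes. The interaction, the change with genotype in DN3 minus that in DN2, was called for 0 of 8 regulators and 0% of genes by edgeR, with 372 genes and 0 regulators at an unadjusted p under 0.05, and for 10 genes and 0 regulators by DESeq2. Without DN2 Arpp21-/- replicate 1 it was called for 5 regulators and 25% of all genes.

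Both libraries that stand apart differed from the WT libraries of their stage by the length of the transcript. In DN2 Arpp21-/- replicate 2 the median difference in log2(CPM + 1) was 1.93 for 750 genes with transcripts of up to 1000 bases, -0.97 for 1644 genes of 3000 to 4000 bases, -1.76 for 1575 genes of 4000 to 6000 bases and -2.16 for 713 genes longer than 6000 bases. In DN3 Arpp21-/- replicate 3 the same medians were 1.03, -0.47, -0.85 and -1.35, and in the other 9 libraries they were between -0.30 and 0.28. The regulators have long transcripts, from 2597 bases for Gfi1 and 2869 for Cbfb through 3389 for Myb, 4012 for Satb1, 4668 for Ikzf1, 5548 for Runx1 and 6344 for Foxo3 to 8665 for Foxo1. In DN2 Arpp21-/- replicate 2, Myb (-2.77), Ikzf1 (-2.74), Runx1 (-3.14), Satb1 (-2.16) and Foxo1 (-2.38) lay below the medians of their classes, and Foxo3 (-0.82) above. Since 1 is added to the CPM, the value of Foxo1, at 4.14 to 4.56 CPM in DN2 WT and with 1 count here, could hardly be lower. In DN3 Arpp21-/- replicate 3, Myb (-1.28), Ikzf1 (-1.34), Runx1 (-1.98) and Foxo3 (-1.45) lay below and Satb1 (-0.15) and Foxo1 (-0.37) above, with Gfi1 at 2.25. Rag1, with a transcript of 6608 bases, was at -2.13 in DN2 Arpp21-/- replicate 2 and at -1.95 in DN3 Arpp21-/- replicate 3. Rag2, of 2472 bases, was at -0.08 and 0.49 in the same libraries. The part of transcript length in the values of single regulators, of Rag1 and of Rag2 was not tested, and RNA integrity is not given per library in the labels.

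**Figure D4:**
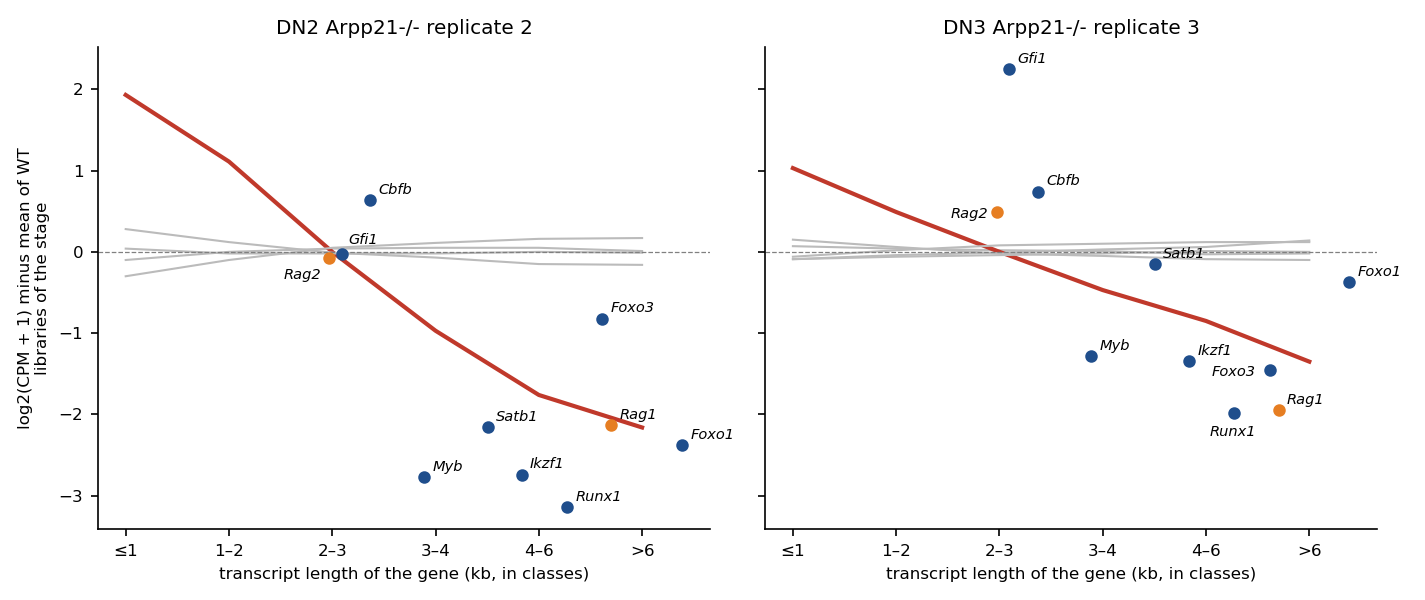
Median difference in log2(CPM + 1) from the WT libraries of the stage by class of transcript length, as a red line for DN2 Arpp21-/- replicate 2 (left) and DN3 Arpp21-/- replicate 3 (right) and as grey lines for the other libraries of the stage, with regulators as blue and Rag genes as orange points placed by length within their class. The red lines fall from 1.93 to -2.16 and from 1.03 to -1.35, while grey lines stay between -0.30 and 0.28.

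The transcripts behind each regulator were compared as shares of the gene's estimated counts. Runx1 is transcribed from a distal and a proximal promoter, which give proteins with different first residues. Transcripts starting at the distal promoter held 87.9% ± 1.2 (SD, n = 3) of Runx1 counts in DN3 WT, 87.8% ± 3.18 (SD, n = 3) in DN3 Arpp21-/-, 90.1% ± 3.16 (SD, n = 3) in DN2 WT and 85.3% ± 5.59 (SD, n = 2) in DN2 Arpp21-/- libraries. The distal share thus overlapped between genotypes at both stages. Within it, the minor Runx1-207 is not annotated as protein coding and was picked out after its values were seen. It held 0.867% to 1.3% in DN3 WT and 2.87% to 5.53% in DN3 Arpp21-/- libraries, without overlap. In DN2 it held 0.541% to 2.58% in WT and 1.33% to 15.8% in Arpp21-/- libraries, with overlap. The share of Runx1-207 was not tested. Foxo3 was split between Foxo3-203, which runs to the end of the gene, and the shorter Foxo3-202, which held 4.5% to 8.34% in DN3 WT and 2.39% to 10% in DN2 WT, and 3.87% to 4.44% in DN3 Arpp21-/- replicates 1 and 2 and 3.91% in DN2 Arpp21-/- replicate 1. It held 27.7% and 40% in 1 Arpp21-/- library of each stage alone, those that stand apart (22.2 and 140 estimated counts). For Gfi1, Gfi1-202 and Gfi1-203 start at the same base, and each took from under 1% to over 70% of the counts within DN3 WT, so that their split is uncertain. Myb was divided between Myb-203 (52.6%) and Myb-201 (46.2%) in the mean of DN3 WT, with 52.8% and 45.5% in DN3 Arpp21-/-. Ikzf1-204 held 61.5% in DN3 WT and 67.2% in DN3 Arpp21-/-. Cbfb was held mostly by Cbfb-202 (63.5% in DN3 WT and 60.7% in DN3 Arpp21-/-) and Cbfb-201 (33.2% and 30.6%). The minor Cbfb-203, picked out after its values were seen, was at 0.00968%, 0% and 0% in DN3 WT, against 4.88%, 6.22% and 4.32% in the DN3 Arpp21-/- libraries, without overlap. In DN2 the order was the opposite, with 1% to 2.23% in WT and 0% and 0.567% in Arpp21-/- libraries. At most 150 estimated counts per library lay behind this share, Cbfb-203 ends at the same base as Cbfb-202, and the share was not tested. Satb1 was spread over several transcripts, of which Satb1-203 (29.5% and 37.1%), Satb1-204 (32.1% and 25.5%) and Satb1-208 (21.4% and 21.9%) held most in DN3 WT and DN3 Arpp21-/-, each with overlap between genotypes.

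Over the 11 libraries, the genes whose log2(CPM + 1) ran most alike to each regulator were described by Pearson's r, with no test. The part of transcript length and of depth in these values was not tested. For Foxo1 they were Lig4 (r = 0.987) and Tigd2 (r = 0.984), for Foxo3 Slc29a2 (0.955) and Herc2 (0.947), for Runx1 N4bp2 (0.987) and Zfp281 (0.984), and for Cbfb Arl2bp (0.973) and Grb2 (0.967). For Ikzf1 they were Bag6 (0.996) and Epb41 (0.994), for Satb1 Tarbp1 (0.982) and Klf13 (0.98), for Gfi1 Tmem64 (0.968) and Mcl1 (0.961), and for Myb Stat4 (0.997) and Hp1bp3 (0.993). Without both libraries that stand apart, r over 9 libraries was 0.709 for Foxo3 with Herc2, 0.748 for Ikzf1 with Epb41, 0.983 for Cbfb with Arl2bp and 0.977 for Myb with Stat4.

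Of 15 other regulators reported at the Rag locus, 0 were called between the genotypes in DN3 by edgeR, against 0.00727% of all genes. In 0 of 15 the groups were separate, against 4.96% of all genes with Arpp21-/- above WT and 5.58% with Arpp21-/- below. The median log2 fold change of the 15 was -0.35 against -0.01 for all genes, and -0.04 without both libraries that stand apart. The lowest was Bcl11b, a factor of T cell commitment, at -0.57 (SE 0.74, edgeR, adjusted p = 1), and Nfya, a subunit of a CCAAT-binding complex, followed at -0.55, and without both libraries they were at -0.23 and -0.24. From DN2 to DN3 in WT, 1 of 15 was called, where 4.12% of all genes were: Lef1, which binds to Rag enhancers with its relative Tcf7, rose from 14, 16.5 and 17.3 CPM to 549, 590 and 556 CPM (log2 fold change 5.15, SE 0.66, edgeR, adjusted p = 0.00222). In DN3 Arpp21-/- libraries Lef1 was at 604, 519 and 191 CPM. Without both libraries that stand apart its log2 fold change between the genotypes was -0.01. Between stages that fit called 5 of 15, all higher in DN3 WT (Lef1, Tcf12, Tcf7, Ets1 and Smarca4), where it called 15.4% of all genes.

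Of the 12 paralogs of the regulators, 10 passed the filter on low counts. Gfi1b, the close relative of Gfi1, was the 1 of 10 called between stages in WT, where 4.12% of all genes were. It fell from 21.3, 23.4 and 19.2 CPM to 1.37, 2.3 and 1.19 CPM (log2 fold change -3.71, SE 0.77, edgeR, adjusted p = 0.0238), opposite in sign to Gfi1 (0.73). Without both libraries that stand apart 5 of 10 were called, with Ikzf3 higher and Gfi1b, Runx2, Runx3 and Mybl2 lower in DN3 WT, against 15.4% of all genes. None of the 10 was called between genotypes in DN3 by edgeR, against 0.00727% of all genes. The values farthest from 0 were those of Foxo4, at 0.501 of its WT level and under 2 CPM in every library, and of Gfi1b (log2 fold change 0.75). Ikzf2, which encodes the Ikaros relative Helios and was picked out after its values were seen, was at 49.6, 52.7 and 51.9 CPM in DN3 WT, against 44.3, 29.6 and 27.6 CPM in the DN3 Arpp21-/- libraries (log2 fold change -0.60, SE 0.47).

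Of 8 genes of the kinase arm that restrains FoxO proteins, 0 were called in any comparison by edgeR in the fit of all libraries. Of all genes it called 0.00727% between genotypes in DN3 and 4.12% between stages in WT. Without both libraries that stand apart, Pdpk1, a kinase that activates Akt, was called higher (adjusted p = 0.0144) and Inpp5d, the phosphatase SHIP1, lower (adjusted p = 0.00865) in DN3 WT than in DN2 WT by edgeR, and 0 genes of the arm in the other comparisons. Between DN2 WT and DN3 WT that fit called 15.4% of all genes. Between genotypes in DN3 the largest values were those of Pik3cd, the δ catalytic subunit of PI3K (log2 fold change -0.63), and Pik3r1, a regulatory subunit (-0.56), and without both libraries that stand apart they were -0.25 and -0.26. Sgk1, a kinase that phosphorylates FoxO proteins, was the 1 gene of the arm whose groups did not overlap in DN3. It was low, at 2.69, 2.6 and 2.17 CPM in WT, against 3.35, 3.21 and 3.39 CPM in the Arpp21-/- libraries. Of all genes, 4.96% had groups apart in this direction and 5.58% in the opposite one. The log2 fold change of Sgk1 was 0.41 (SE 0.67, edgeR, unadjusted p 0.549), and the gene was picked out after its values were seen.

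Of 12 known FoxO target genes, 0 were called between genotypes in DN3 by edgeR, against 0.00727% of all genes. The median log2 fold change of the 12 was -0.27 and 3 of 12 were above 0, and without both libraries that stand apart the median was -0.20. In 4 of 12 all Arpp21-/- libraries were below all WT libraries, against 5.58% of all genes, and Klf2, Pik3ip1 and Sesn1 among them were picked out after their values were seen. Pik3ip1, an inhibitor of PI3K, was at 274, 226 and 253 CPM in WT, against 196, 143 and 119 CPM in the Arpp21-/- libraries. Klf2, a factor of lymphocyte migration, was under 1 CPM in all DN3 libraries, with 10, 13 and 13 counts in WT and 2, 3 and 5 counts in Arpp21-/-. S1pr1, a receptor for thymic exit, had at most 8 counts in any DN3 library. Pik3ip1 and Sesn1 have transcripts of 2422 and 2683 bases, and without both libraries that stand apart their log2 fold changes were -0.57 for Pik3ip1 and -0.35 for Sesn1, a stress-induced gene. Il7r, picked out after its values were seen and encoding the α chain of the interleukin-7 receptor, was at 106, 87 and 98.2 CPM in DN3 WT, against 124, 104 and 51.5 CPM in the DN3 Arpp21-/- libraries, which overlapped. In DN2 and for the interaction edgeR called 0 genes of these 4 lists. The medians of their log2 fold changes in DN2 were -0.69 for the other regulators, -0.80 for the paralogs, -0.49 for the kinase arm and -0.02 for the FoxO targets, against -0.69 for the 8 regulators and -0.06 for all genes. Without both libraries that stand apart the direction turned for the other regulators (0.08) and the kinase arm (0.10), and the medians were -0.15 for the paralogs, -0.13 for the FoxO targets and -0.06 for the 8 regulators.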

How the data were processed

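The authors sequenced RNA of 11 thymocyte samples, purified by cell sorting, from SMART-Seq v4 cDNA with Nextera libraries. The authors ran kallisto 0.46 against Ensembl transcripts of GRCm38 and deposited 1 table per library with estimated counts per transcript, TPM per transcript, and the length and effective length of each transcript as other values. Estimated counts are not whole numbers, because reads shared by transcripts or by paralogs such as the FoxO and Ikaros families are divided by a model, and a strand setting is not given in the sources used here.

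Estimated counts and TPM were summed per gene with a table of GENCODE M21 transcripts, and 0.959% to 1.09% of the counts of a library had no match. Counts were rounded and fitted with edgeR 4.0.16 in R 4.3.3 (TMM, filterByExpr with a minimum count of 10, quasi-likelihood test, two-sided) over all 11 libraries in 4 groups, and p-values were adjusted by Benjamini-Hochberg over 13749 genes. A gene was called at an adjusted p under 0.05. SEs were taken from the log2 fold change and its F statistic. The members and the gene lists were chosen with earlier results of these data known, and every member was named, together with, from each list, the genes called in DN3 or between stages or, in DN3 with none called, the 2 with the largest size, and for each member the 2 genes with the highest r. Values of some list genes are not reported here. Genes outside this rule are marked in the text as picked after seeing their values. DESeq2 1.42.0, limma 3.58.1, length offsets, other filters, fewer libraries and replicate blocks were tried as alternatives, and the fitting code was tested on simulated data. The 95% intervals come from the fit and carry the spread between libraries, and the limit of 3 counts (0.0802 to 0.242 CPM) covers counting error only.

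Replicate numbers were checked as pairs by the correlation of deviations from the group means over genes. For DN3 against DN2 in WT, same-numbered libraries had r = 0.51, 0.16 and 0.36, all over 0.1, so that the replicate block is given beside the results it changes. The labels do not say what a number marks.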

Additional observations from a re-analysis of the deposited data

How the results depend on the processing

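Between genotypes in DN3, 0 of 8 regulators were called under any alternative, and genes called numbered 16 with DESeq2, 2 with limma on log2(TPM + 0.1), 118 with voom, 5 without both libraries that stand apart, 0 with only the 2 groups compared and 0 with the replicate block, against 1. Leaving out 1 library gave 0 to 1 genes. Of 110 values under other settings 98 kept their direction and call, and for Rag1 the call was gained with voom. Signs turned for Foxo1 with an offset for the trend over length (0.21), for Foxo3 (0.11 with voom, 0.11 without both libraries), for Cbfb (-0.14 with TPM + 1 and with TPM + 0.1, -0.17 with voom, -0.26 without both), for Satb1 (-0.14 with either TPM setting) and for Gfi1 (-0.07 with voom, -0.09 without both). With 1 library left out, Foxo3 ranged from -0.56 to 0.11, Cbfb from -0.25 to 0.40, Satb1 from -0.04 to 0.23 and Gfi1 from -0.08 to 1.51. In DN2, DESeq2 called 38 genes, and leaving out 1 library gave 0 to 6773 genes and 0 to 5 regulators, the upper values without Arpp21-/- replicate 1. Signs turned without both libraries for Foxo1 (0.46), Runx1 (0.10) and Myb (0.00 after rounding), with the length trend for Foxo3 (0.58) and with TPM for Cbfb (-0.27), and the ranges with 1 library left out were -7.09 to 0.46 for Foxo1, -3.19 to 0.10 for Runx1, -2.80 to 0.00 for Myb and -0.28 to 0.08 for Rag2. Between stages in WT, genes called numbered 1191 with DESeq2, 2324 with voom, 2000 with only the 2 groups, 2230 without both libraries and 216 with the genotype replicate block, 243 to 1081 with 1 library left out (lowest without DN3 WT replicate 3, highest without DN2 Arpp21-/- replicate 1), and regulators called numbered 1 with voom, 2 with only the 2 groups and 3 without both. The sign turned for Foxo3 with the length trend (-0.05). The genotype replicate block ended the call of Rag2 and of no other regulator or Rag gene. The interaction was called for 10 genes with DESeq2 and for 0 to 3661 genes and 0 to 5 regulators with 1 library left out. Its sign turned without both libraries for Foxo1 (-0.65), Ikzf1 (-0.05), Myb (-0.20) and Rag1 (-0.23), with length offsets for Foxo3 (-0.20 by average length, -0.67 by trend) and Rag1 (-0.23 by trend), with TPM for Runx1 (0.52 and 0.59), Cbfb (0.13) and Rag1 (-0.73 with TPM + 1), with voom for Runx1 (1.00), and for Runx1 with the replicate block (0.21) and the genotype replicate block (0.93). With 1 library left out the interaction ranged from -0.73 to 6.83 for Foxo1, -1.05 to 2.25 for Runx1, -0.57 to 0.10 for Cbfb, -0.35 to 2.33 for Ikzf1, -0.48 to 2.33 for Myb and -0.41 to 1.37 for Rag1. The number of regulators with a lower Rag1 ratio in every DN3 Arpp21-/- library was 7 to 8 with 1 DN3 library left out, an alternative chosen after seeing the data. The cause of these changes was not tested.

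In the genotype comparisons same-numbered libraries had r = 0.39, -0.21 and 0.14 in DN3 and 0.22 and 0.23 in DN2. Both values in DN2 were over 0.1, and that of replicate 2 in DN3 was not. The replicate block called 0 genes in each of these comparisons.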
